A study of Mus musculus with 8 samples.

Results

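The 8 genes described here encode the fatty acid desaturases and elongases of mouse liver: Scd1, Scd2, Fads1, Fads2, Elovl1, Elovl2, Elovl5 and Elovl6. They were chosen by gene name, as every array probe annotated to one of them, which gave 9 probes of the 41174 on the array. Elovl5 had 2 probes and each other gene had 1. All 8 genes passed the filter on dim probes and belong to the 15342 genes that were compared.

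Desaturases place double bonds in fatty acyl chains, and elongases add carbons to them in the endoplasmic reticulum. Stearoyl-CoA desaturases and Elovl6 turn newly made palmitate into stearate, palmitoleate and oleate, the saturated and monounsaturated arm. Fads2, Elovl5, Fads1 and Elovl2 turn the dietary essential fatty acids into arachidonate and docosahexaenoate, the polyunsaturated arm, and Elovl1 lengthens saturated and monounsaturated very long chains and was placed in neither arm.

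Liver was taken from knockout (AIM-/-) and wild-type (AIM+/+) mice, strain background C57Bl/6. AIM, the product of Cd5l, is a protein secreted by macrophages, and the AIM-/- mice lack it. Each genotype was measured on normal chow (0 weeks) and after 6, 12 and 20 weeks on a high-fat diet, with 1 one-colour Agilent array for each genotype and time, 8 arrays in all. The labels used here give neither the age or sex of the mice nor the composition of the diet, and do not say whether RNA was pooled.

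No group had a replicate, so both genotypes stood in for replicates of a week and the weeks for replicates of a genotype, and no p-value measures the spread between animals. Chow was measured at 0 weeks alone, so diet and age cannot be told apart. All AIM-/- arrays were on one slide and all AIM+/+ arrays on the other, so slide and genotype cannot be told apart, and each week had its own position on both slides. Between 18586 and 21119 probes per array had signal well above background, as marked in the scanner output. Cd5l gave processed signals of 90.7 to 171 in AIM-/- livers and 10500 to 30200 in AIM+/+ livers. Of the 9 hepatocyte markers measured, all were well above background on every array. Averaged over the diet weeks, 1 of the 9 fell against chow, where 0.795% of all genes were called lower. The Y-linked gene Ddx3y gave processed signals of 5.33 and 6.23 on the 20-week AIM-/- and AIM+/+ arrays, against 866 to 1680 on the other 6. Xist, which is made from the inactive X chromosome, gave processed signals of 892 and 903 on the 20-week AIM-/- and AIM+/+ arrays, against 5.15 to 165 on the other 6. Xist was well above background on 4 of the 6 diet arrays and on 0 chow arrays. Outside 20 weeks its signal was highest in the AIM-/- liver at 6 weeks (165) and the AIM+/+ liver at 12 weeks (66.1). Ddx3y gave 1100 and 1140 on those arrays. The part of these sex-chromosome signals in the results at 20 weeks, at the other diet weeks or in the mean diet difference was not tested.

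Levels are given as relative signal, the processed signal as a multiple of its own array's 75th percentile. They compare arrays for 1 probe and not one gene with another. Where a processed signal is named instead, it is as deposited and not scaled. Differences are on the log2 scale with the standard error (SE) of limma's fit over all genes and a Benjamini-Hochberg adjusted p over all genes tested, with 0.05 as the threshold.

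The probes lie, by the array files' mm8 coordinates, at chr19:10131305-10131735 for Fads2 and chr19:10263085-10263144 for Fads1, and at chr19:44448208-44448267 for Scd1 and chr19:44359845-44359904 for Scd2. Elovl2 was read at chr13:41194185-41194244 and Elovl1 at chr4:117930352-117930411. The files used here do not say which exon each probe lies in. All 9 probes were well above background on 8 of 8 arrays.

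Promoter sequences of 3 genes that moved on the diet or differed in pattern are shown for orientation: Fads2 and Elovl5 from the polyunsaturated arm and Elovl6 from the other. Each runs 5′ to 3′ from 250 bases before to 50 bases from the annotated start (RefSeq, GRCm38.p6), and capitals mark matches to any searched motif. The positions are chr19:10101454-10101753 on the minus strand for Fads2, chr9:77917115-77917414 on the plus strand for Elovl5 and chr3:129532136-129532435 on the plus strand for Elovl6.
Fads2: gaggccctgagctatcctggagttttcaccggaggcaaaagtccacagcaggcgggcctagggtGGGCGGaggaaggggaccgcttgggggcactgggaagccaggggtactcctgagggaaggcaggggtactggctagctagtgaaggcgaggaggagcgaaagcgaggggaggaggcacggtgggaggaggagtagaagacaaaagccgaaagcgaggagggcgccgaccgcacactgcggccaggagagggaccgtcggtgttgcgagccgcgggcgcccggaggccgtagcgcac
Elovl5: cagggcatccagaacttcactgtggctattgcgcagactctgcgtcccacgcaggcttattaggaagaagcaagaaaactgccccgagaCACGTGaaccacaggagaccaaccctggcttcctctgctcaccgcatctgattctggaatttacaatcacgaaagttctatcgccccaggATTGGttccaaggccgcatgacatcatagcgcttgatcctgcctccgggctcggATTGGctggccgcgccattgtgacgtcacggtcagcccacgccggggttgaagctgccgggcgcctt
Elovl6: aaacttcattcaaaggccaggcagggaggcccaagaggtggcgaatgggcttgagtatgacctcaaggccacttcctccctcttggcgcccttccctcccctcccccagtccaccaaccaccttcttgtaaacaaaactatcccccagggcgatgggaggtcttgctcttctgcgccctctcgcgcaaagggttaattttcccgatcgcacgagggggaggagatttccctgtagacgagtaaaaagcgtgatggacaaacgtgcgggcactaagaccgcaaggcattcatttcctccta
Windows were matched for 5 of the 8 genes (these and Elovl1 and Elovl2), and both strands were searched. Some genes have more than 1 window, so counts are given per window, 7 in all. The GC box GGGCGG was found in Fads2, at positions -186 to -181 from the start, and in Elovl1 and Elovl2, so in 4 of 7 windows (3 of 5 genes), against 35.7% of 32851 RefSeq promoter windows. The CCAAT box was found in Elovl5, where it lies on the minus strand as ATTGG at both matches, and in Elovl1, so in 2 of 7 windows, against 37.4% of windows. In 1 Elovl1 window a CCAAT box shares bases with a GC box. The E-box CACGTG was found in 1 of 7 windows, that of Elovl5, against 7.15% of windows. The sterol regulatory element TCACNCCAC matched in 0 of 7 windows, against 1.24% of all windows. The spaced direct repeats known as PPAR and LXR elements each matched in 0 of 7 windows, against 0.0396% of windows for PPAR and 0.0152% for LXR. These counts say only which letters stand in these windows.

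The polyunsaturated arm was higher on the high-fat diet on every array. Fads2, Elovl5, Fads1 and Elovl2 had all 6 diet arrays above both chow arrays, 4 of 4 genes, while 0 of the other 4 genes did. Of all genes, 10.5% had the diet arrays above both chow arrays. Across the arm's 4 genes, the median log2 change from the chow array of the same genotype was 0.85, 0.88 and 1.38 in AIM-/- livers at 6, 12 and 20 weeks, and 1.16, 1.38 and 1.51 in AIM+/+ livers. The median over all genes lay between -0.06 and 0.03 in these 6 comparisons. In whole liver, fewer cells of a type and less RNA per cell cannot be told apart.

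**Figure D1:**
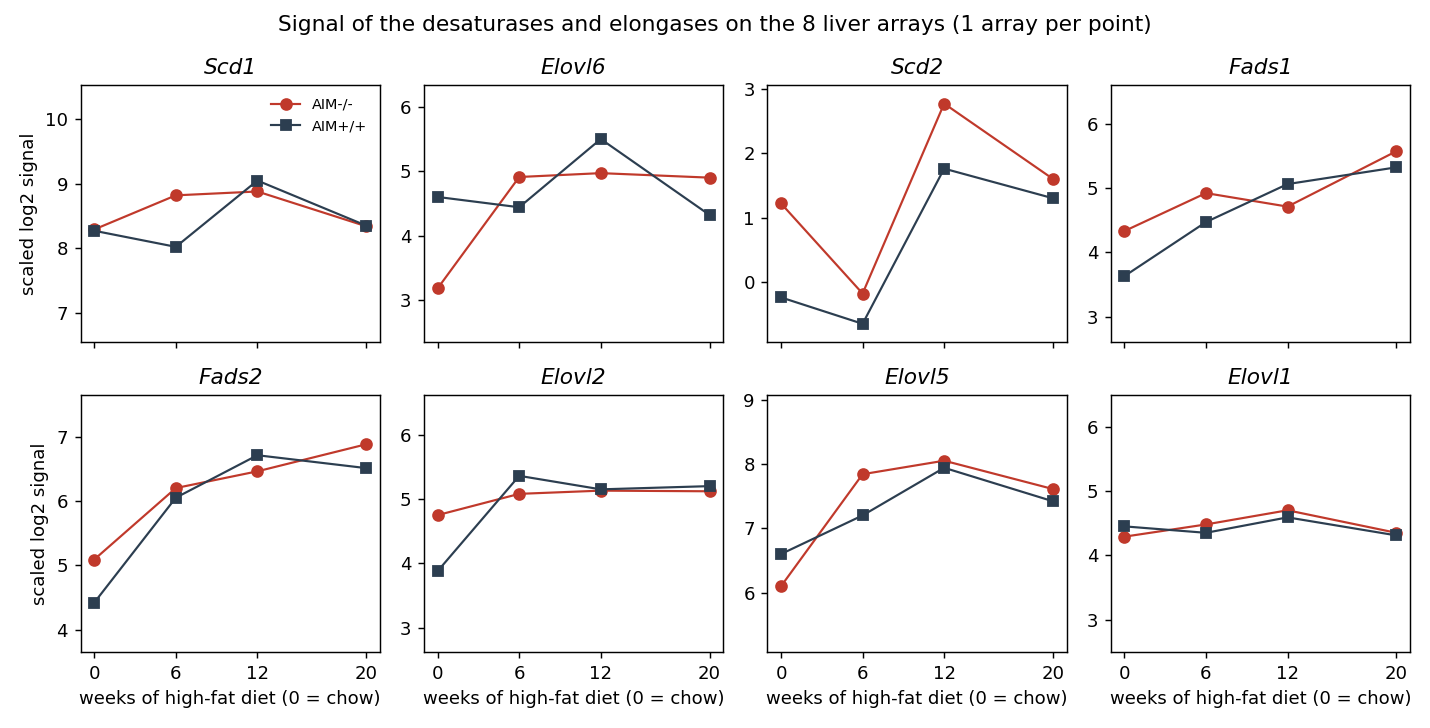
Scaled log2 signal (log2 signal minus the array's 75th percentile) of the 8 genes against weeks of high-fat diet, with AIM-/- as circles and AIM+/+ as squares and 1 array per point. Fads1, Fads2, Elovl2 and Elovl5 lie above both chow points at every diet week, Elovl6 is low on the AIM-/- chow array, and Scd2 peaks at 12 weeks in both genotypes.

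Fads2, the desaturase that takes the first step on linoleate and alpha-linolenate, had relative signals of 34.0, 73.6, 88.2 and 118 in AIM-/- livers at 0, 6, 12 and 20 weeks. In AIM+/+ livers they were 21.4, 66.2, 105 and 91.2. Its lowest diet array, AIM+/+ at 6 weeks, was still above its highest chow array, AIM-/-. Averaged over the 3 diet weeks and both genotypes, Fads2 rose 3.28-fold (log2 difference 1.71, SE 0.20, adjusted p = 0.04) and was the 1 gene of the 8 that passed, against 2.33% of all genes called in either direction and 1.54% called higher. At an unadjusted p under 0.05 there were 4 of the 8, against 25.2%. It rose at 12 weeks (1.83, SE 0.24, adjusted p = 0.0372) and at 20 weeks (1.94, SE 0.24, adjusted p = 0.0397), and was 1.37 at 6 weeks (SE 0.24, adjusted p = 0.211). Without the 12-week arrays the diet difference was 1.66 (adjusted p = 0.118) and without the 20-week arrays 1.60 (adjusted p = 0.113), so the call ended while the size held. With no filter on dim probes it was 1.71 with an adjusted p of 0.081.

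Elovl5, which elongates the product of Fads2, had relative signals of 68.5, 228, 266 and 196 in AIM-/- livers at 0, 6, 12 and 20 weeks. In AIM+/+ livers they were 97.0, 147, 245 and 171, so both genotypes were highest at 12 weeks. It rose at 12 weeks (log2 difference 1.65, SE 0.28, 3.13-fold, adjusted p = 0.0457). The mean diet difference was 1.33 (SE 0.23, adjusted p = 0.0597), and under quantile normalization the 12-week adjusted p was 0.0509. The second Elovl5 probe gave 1.37 for the mean diet difference (SE 0.23, adjusted p = 0.0561) and rose by 1.69 at 12 weeks (SE 0.28, adjusted p = 0.0439). Both Elovl5 probes lie on chromosome 9 of mm8, at chr9:77770082-77770141 and chr9:77769477-77769536. The brighter probe's signal came from the scanner's scaled low-gain scan on 7 of 8 arrays and the second probe's on 1 of 8.

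Fads1, the desaturase that makes arachidonate, had relative signals of 20.1, 30.3, 26.2 and 47.6 in AIM-/- livers at 0, 6, 12 and 20 weeks. The AIM+/+ livers had 12.4, 22.2, 33.3 and 39.9. Both genotypes were highest at 20 weeks, but Fads1 did not pass the test in any week. Its differences from chow were 0.72 at 6 weeks (SE 0.27, adjusted p = 0.448), 0.90 at 12 weeks (adjusted p = 0.111) and 1.46 at 20 weeks (adjusted p = 0.0672), and the mean was 1.03 (SE 0.22, adjusted p = 0.0784). Fads1 and Fads2, which are neighbours on chromosome 19, had a Pearson r of 0.92 over the 8 arrays, and 0.94 without the 20-week arrays. These points share the diet steps, so the correlation is a description.

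Elovl2, which elongates the chains that become docosahexaenoate, had relative signals of 26.9, 33.8, 34.9 and 34.9 in AIM-/- livers at 0, 6, 12 and 20 weeks. The AIM+/+ livers had 14.7, 41.1, 35.4 and 36.9. The 6 diet arrays lay close together, and the AIM+/+ chow array stood lowest. From each genotype's own chow array, the log2 changes at 6, 12 and 20 weeks were 0.33, 0.38 and 0.38 in AIM-/- livers and 1.48, 1.27 and 1.33 in AIM+/+ livers. The mean diet difference was 0.86 (SE 0.25, adjusted p = 0.124).

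**Figure D2:**
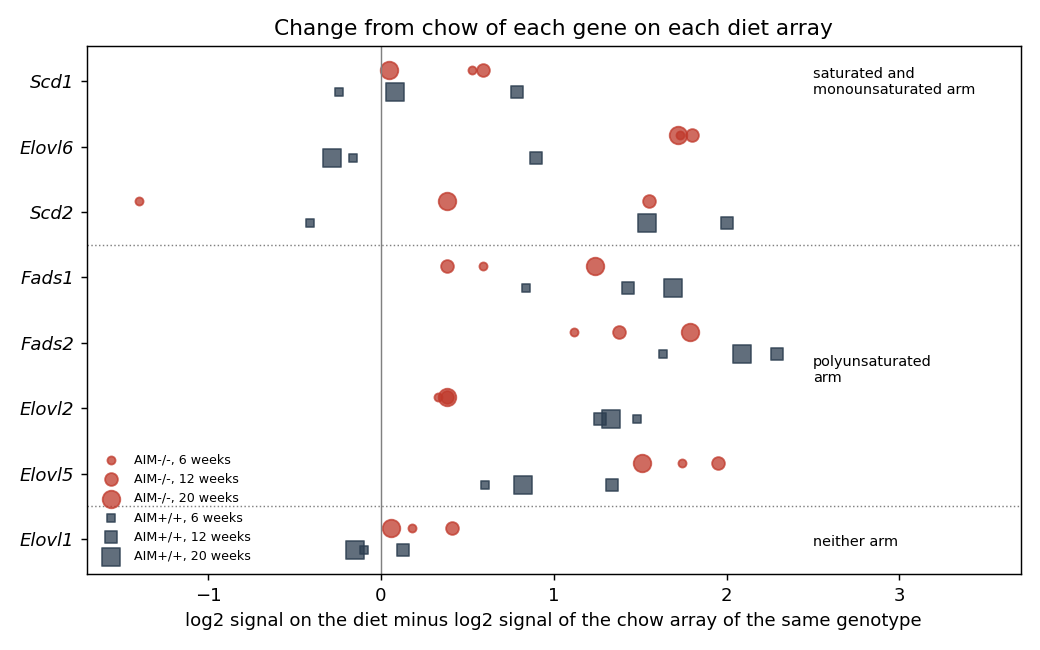
Log2 signal on each diet array minus log2 signal of the chow array of the same genotype, by gene, with AIM-/- circles above AIM+/+ squares and larger symbols for later weeks. All points of Fads1, Fads2, Elovl2 and Elovl5 lie right of 0, and Elovl6 lies between 1.72 and 1.80 in AIM-/- livers and between -0.28 and 0.90 in AIM+/+ livers.

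The saturated and monounsaturated arm was not higher than chow on every diet array. Its 3 genes had a median log2 change from chow of 0.53, 1.55 and 0.38 in AIM-/- livers at 6, 12 and 20 weeks. In AIM+/+ livers the medians were -0.24, 0.90 and 0.08, and 0 of 3 genes were higher than chow at 6 weeks. At 12 weeks 3 of 3 were higher in both genotypes, as they were at 20 weeks in AIM-/- livers. In AIM-/- livers at 6 weeks and AIM+/+ livers at 20 weeks, 2 of 3 were higher. The median over all 6 diet arrays was 1.27 in the polyunsaturated arm and 0.45 in this one. This difference between the arms was not tested.

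Scd1, the main hepatic stearoyl-CoA desaturase, had relative signals of 313, 451, 470.0 and 324 in AIM-/- livers at 0, 6, 12 and 20 weeks. The AIM+/+ livers had 308, 260.2, 531 and 326. The chow values and the 20-week values lay close together in both genotypes, and 12 weeks was highest in both. Scd1 passed no test: its mean diet difference was 0.30 (SE 0.22, adjusted p = 0.425) and its 12-week difference 0.69 (SE 0.26, adjusted p = 0.175). Its 95% interval for the mean diet difference ran from -0.26 to 0.85. The Scd1 signal came from the scaled low-gain scan on 8 of 8 arrays, and 0 spots were saturated.

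Elovl6, which elongates palmitate to stearate, had relative signals of 9.04, 30.0, 31.4 and 29.9 in AIM-/- livers at 0, 6, 12 and 20 weeks. The values in AIM+/+ livers were 24.3, 21.8, 45.3 and 20.0. The AIM-/- chow array was the lowest of the 8 and the AIM+/+ array at 12 weeks the highest, while the 6- and 20-week AIM+/+ arrays lay below the AIM+/+ chow array. Its mean diet difference was 0.95 (SE 0.43, adjusted p = 0.242), with an interval from -0.15 to 2.06.

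Scd2, a desaturase of brain and of fetal liver, had relative signals of 2.33, 0.884, 6.83 and 3.04 in AIM-/- livers at 0, 6, 12 and 20 weeks. The AIM+/+ livers had 0.848, 0.638, 3.39 and 2.46. In both genotypes 6 weeks was lowest and 12 weeks highest. It had the widest range of the 8 genes, 10.7-fold over the arrays, wider than 94.9% of all genes, and Elovl1 the narrowest, 1.33-fold. Scd2 rose at 12 weeks (1.77, SE 0.31, 3.42-fold, adjusted p = 0.0472) and was -0.91 at 6 weeks (SE 0.31, adjusted p = 0.422). From 6 to 12 weeks the difference was 2.68 (SE 0.31, 6.4-fold, adjusted p = 0.0943), the largest of the 8 genes, where limma called 0% of all genes and 17.7% had an unadjusted p under 0.05. Of the 8 genes 1, Scd2, was under that unadjusted threshold.

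At 12 weeks, then, 3 of the 8 genes passed (Fads2, Scd2 and Elovl5), against 6.09% of all genes. All 3 rose, as did 4.08% of all genes, and 6 of the 8 had an unadjusted p under 0.05, against 28%. At 20 weeks 1 passed (Fads2), against 1.69% of all genes called and 1.16% called higher, and 5 of the 8 had an unadjusted p under 0.05, against 25%. At 6 weeks 0 passed by limma, against 0.00652%, and 5 had an unadjusted p under 0.05, against 10.8%. The median difference of the 8 genes was 0.75, 1.13 and 0.91 at 6, 12 and 20 weeks, where all genes had 0, -0.05 and -0.03. Without the 6-week or the 20-week arrays, the 12-week adjusted p of these 3 genes lay between 0.0618 and 0.0878, with the same differences.

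**Figure D3:**
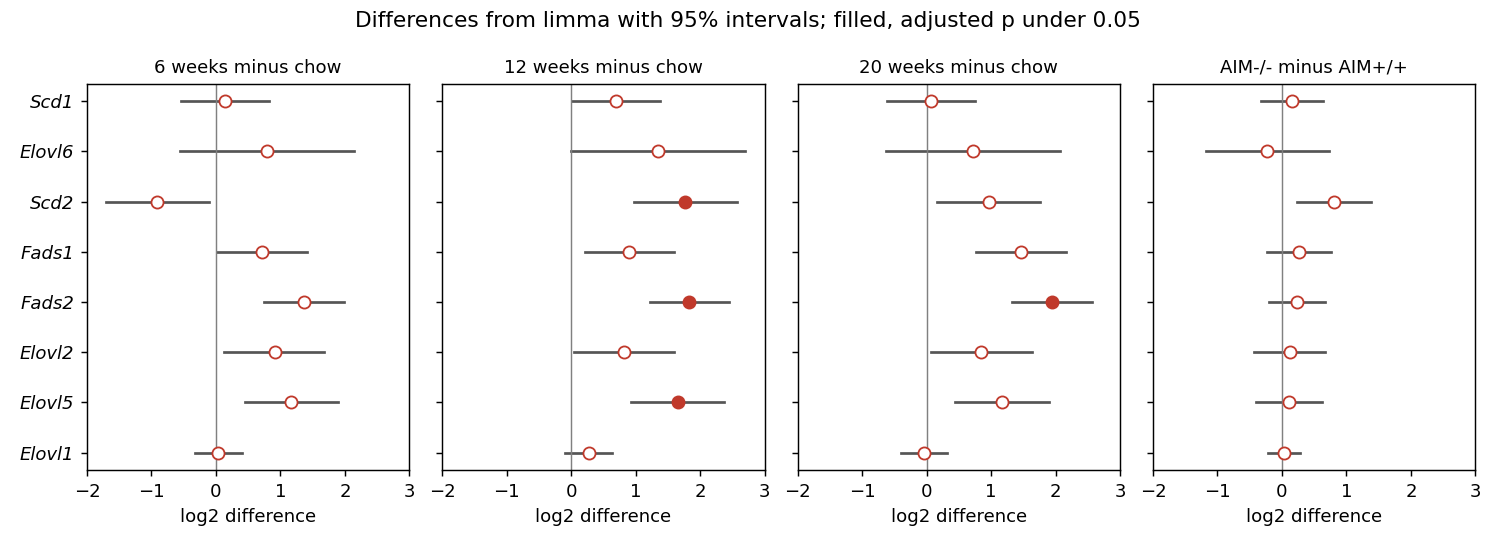
Log2 differences of each gene from limma with 95% intervals for 6, 12 and 20 weeks minus chow and for AIM-/- minus AIM+/+, filled where the adjusted p was under 0.05. Fads2 at 12 and 20 weeks and Scd2 and Elovl5 at 12 weeks are filled, and no gene is filled for genotype.

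Elovl1, the elongase in neither arm, had relative signals of 19.6, 22.3, 26.1 and 20.5 in AIM-/- livers at 0, 6, 12 and 20 weeks. The values in AIM+/+ livers were 21.9, 20.4, 24.0 and 19.8. The chow arrays overlapped those of 6 and 20 weeks, while both 12-week arrays lay above every array of the other weeks. Elovl1 did not pass at 12 weeks (0.27, SE 0.14, adjusted p = 0.272). The mean diet difference was 0.09 (SE 0.11, adjusted p = 0.645), with an interval from -0.20 to 0.38.

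The genotypes did not differ past the threshold for any of the 8 genes. By limma 0 of 8 passed, against 0.0326% of all genes, and 1 had an unadjusted p under 0.05, against 5.59%. That gene was Scd2, which was higher in AIM-/- than in AIM+/+ livers in 4 of 4 weeks, as were 5.31% of all genes. Its AIM-/- minus AIM+/+ difference was 0.81 (SE 0.22, unadjusted p = 0.0142, adjusted p = 0.671). The other 7 genes lay between -0.23 for Elovl6 and 0.26 for Fads1. Elovl6 was -0.23 with all weeks and 0.17 without the chow arrays. Its probe lies on chromosome 3 of mm8 at chr3:129630352-129630411, 42.2 Mb from that of Cd5l.

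The largest genotype differences were on chow, where 1 array stands against 1 and no test is possible. Elovl6 was 2.69-fold lower in the AIM-/- than in the AIM+/+ chow liver, and Scd2 was 2.75-fold higher. These 2 of 8 genes were at least 2-fold apart on chow, against 7.25% of all genes. On the same chow arrays the log2 difference was 0.87 for Elovl2, 0.70 for Fads1, 0.66 for Fads2 and -0.50 for Elovl5. At 12 weeks Scd2 was again 2.02-fold higher in the AIM-/- liver, 1 of 8 genes against 4.56% of all genes, and at 6 and 20 weeks 0 of 8 were 2-fold apart, against 6.56% and 4.16%.

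**Figure D4:**
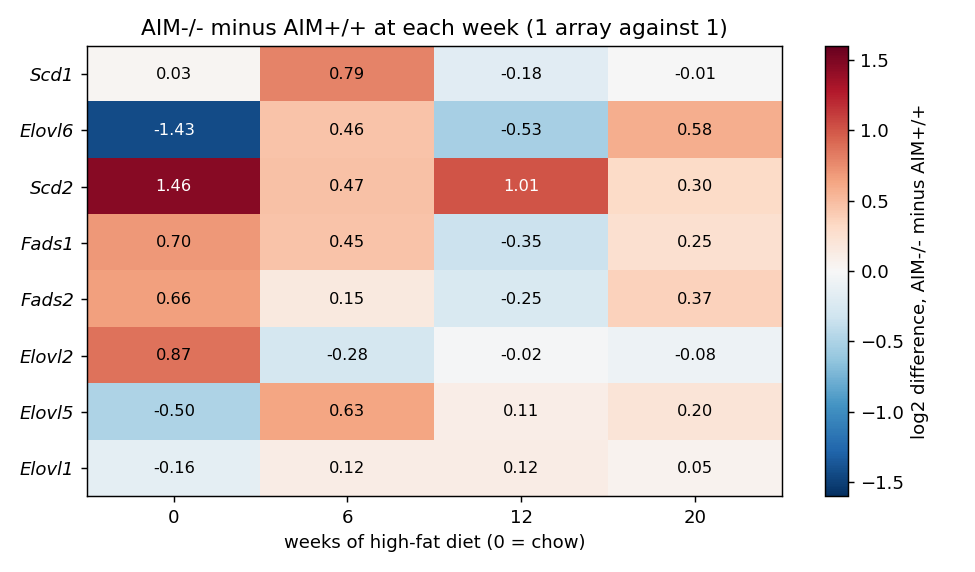
Heat map of the log2 difference AIM-/- minus AIM+/+ of each gene (down the page) at 0, 6, 12 and 20 weeks of high-fat diet (across), 1 array against 1 in each cell. The strongest colours are on chow, at -1.43 for Elovl6 and 1.46 for Scd2, and at 12 weeks for Scd2, at 1.01.

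Whether the diet difference itself depended on genotype was tested as an interaction. By limma 0 of 8 genes passed, against 0% of all genes, and 1 had an unadjusted p under 0.05, against 4.42%. That gene was Elovl2, whose diet difference was smaller in AIM-/- than in AIM+/+ livers (interaction -1.0, SE 0.24, adjusted p = 0.745). Elovl6 went the other way (1.60, SE 0.65, adjusted p = 1): its diet difference was 1.75 in AIM-/- livers and 0.15 in AIM+/+ livers. In both genes each genotype's chow level rests on 1 array.

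Most of the 13 genes of the lipogenesis list were also lower on the AIM-/- than on the AIM+/+ chow array, 11 of 13, against 48.3% of all genes. Their median log2 difference on chow was -0.82, where all genes had 0.01, and Mid1ip1 and Mcat were higher in the AIM-/- chow liver. Pnpla3, counted among the 11, was well above background on 0 chow arrays. Fasn, fatty acid synthase, gave a processed signal of 49000 in the AIM-/- chow liver and 129000 in the AIM+/+ chow liver. Me1, malic enzyme, which supplies NADPH, gave processed signals of 2150 and 6690 in the AIM-/- and AIM+/+ chow livers, and Acacb, which makes malonyl-CoA at mitochondria, 2620 and 8100. Elovl6 had a Pearson r above 0.5 over the 8 arrays with 10 of these 13 genes, against 16.9% of all genes. Elovl5, of the polyunsaturated arm, had 9, against 22.1%. Scd1 had 6, against 14.8%, and Elovl1 6, against 15.4%, while Fads2 had 4, Fads1 2, and Scd2 and Elovl2 1 each, against 22.1%, 20.1%, 16.9% and 14.6%. These arrays share their diet weeks and the low chow array, and the genes counted for Elovl6 and Elovl5 include Pnpla3.

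By limma 0 of the 13 lipogenesis genes passed in the mean diet contrast, against 2.33% of all genes, 3 had an unadjusted p under 0.05, and 11 were above 0, with a median of 0.46 where all genes had -0.02. Over all genes 25.2% had an unadjusted p under 0.05. Pnpla3, a lipid droplet protein, was at least 5.11-fold higher on the diet, with 0 of 2 chow arrays well above background (adjusted p = 0.0776). Acacb had 1.26 (adjusted p = 0.18), Thrsp, which promotes lipogenesis, 1.08 (adjusted p = 0.195), and Fasn 0.81 (adjusted p = 0.256).

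**Figure D5:**
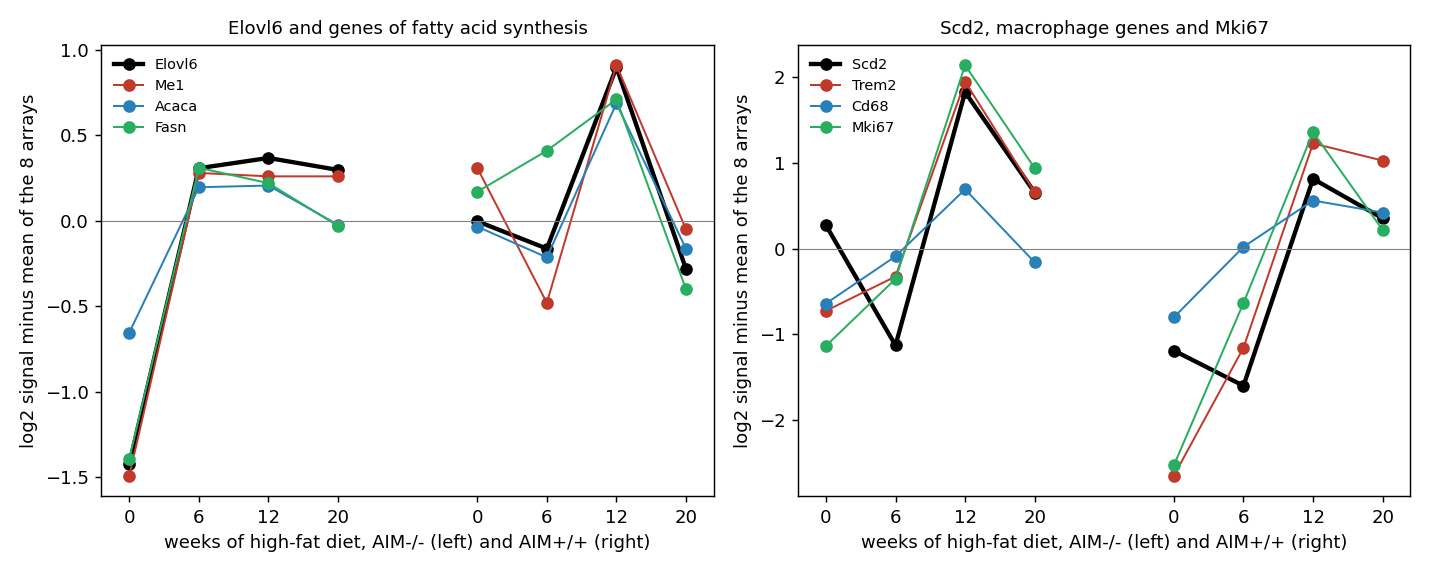
Log2 signal minus the gene's mean over the 8 arrays, against weeks of high-fat diet, for Elovl6 with Me1, Acaca and Fasn (left panel) and for Scd2 with Trem2, Cd68 and Mki67 (right panel), AIM-/- left and AIM+/+ right in each. Elovl6 and its companions are low on the AIM-/- chow array, and Scd2 and its companions are highest at 12 weeks in AIM-/- livers. The companions of Scd2 and Fasn were chosen after their values were seen.

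Among 2524 genes well above background on all arrays with at least a 2-fold range, the 5 most like Elovl6 over the 8 arrays were Me1 (r 0.961), Neurl2, Dennd2d, Nckipsd and Acaca (r 0.947). Those most like Fads2 were Dntt (r 0.98), Tmem120a, Cpt1a, Gk and Spc25 (r 0.973). Those most like Fads1 were Gtdc1 (r 0.981), Acot4, Dntt, Slc5a6 and Mamdc2 (r 0.941). Scd1 was most like Vegfb (r 0.933), Plekha1, Cbr3, Vat1 and Srxn1 (r 0.887). Within the family, Fads2 had an r of 0.86 with Elovl2 and 0.84 with Elovl5. Elovl6 had an r of 0.86 with Elovl5 and 0.18 with Scd2.

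Markers of other cell types differed at 12 weeks as well, beside Scd2, Fads2 and Elovl5. Of 11 macrophage markers 4 rose, against 4.08% of all genes called higher: Trem2 by 3.27 (SE 0.52, adjusted p = 0.0421), Cd68 by 1.35 (SE 0.22, adjusted p = 0.0436), Itgax by 3.33 (SE 0.57, adjusted p = 0.0459), for which 1 of 2 chow arrays was well above background, and Gpnmb, at least 4.92-fold, with 0 of 2. The other 7 did not pass, and 4 of them had values below 0: Timd4 -0.79, Marco -0.56, Cd163 -0.22 and Vsig4 -0.16. Adgre1 (0.72), Csf1r (0.52) and Clec4f (0.39) were above 0. The summed relative signal of the 11 macrophage genes ran from 49.6 to 62.9 in AIM-/- livers and from 49.7 to 76.2 in AIM+/+ livers. Bright probes weigh most in this sum, Clec4f above all, so it does not measure macrophage number.

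Of the proliferation markers 3 of 4 rose at 12 weeks, against 4.08% of all genes called higher, but their chow levels were at or near background. For Mki67 and Plk1 1 of 2 chow arrays was well above it, and 0 of 2 for Cdk1, which was at least 1.97-fold higher. Of the stellate cell markers 2 of 8 rose (Col3a1 and Lrat), against 4.08% of all genes. Of the hepatocyte markers 2 of 9 fell (Cps1 and Ass1), against 2.01% of all genes called lower. Of the adipocyte markers, Adipoq, Lep and Plin1 were too dim to be kept. Of the 6 measured, 0 passed by limma, against 6.09% of all genes, and 3 had an unadjusted p under 0.05, against 28%. Among them Cfd, adipsin, had a 12-week difference of 2.99 (SE 0.89, adjusted p = 0.108), with processed signals of 2480 in the AIM-/- and 13600 in the AIM+/+ liver at 6 weeks, against 65.8 in the AIM-/- and 133 in the AIM+/+ liver on chow. Pparg had a 12-week difference of 1.28 (SE 0.25, adjusted p = 0.0537).

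These markers ran alongside several of the 8 genes. An r above 0.5 over the 8 arrays was found with 6 of 11 macrophage, 6 of 8 stellate and 3 of 4 proliferation genes for Scd2, against 16.9% of all genes. The counts were 7, 6 and 3 for Fads2, against 22.1% of all genes, 7, 7 and 3 for Fads1, against 20.1%, and 6, 5 and 3 for Elovl5, against 22.1%. For Scd1, which passed no test, they were 4, 6 and 4, against 14.8%, and for Elovl2 6, 1 and 3, against 14.6%. Elovl6 had 2, 5 and 3, against 16.9%, and Elovl1 2, 2 and 4, against 15.4%. These arrays share the diet steps, so the counts are a description. Among the markers counted, Gpnmb, Cdk1 and Ccnb1 were well above background on 0 chow arrays, and Itgax, Mki67 and Plk1 on 1. The r of these markers rests partly on chow values near background. With the other macrophage genes, Scd2 had an r of 0.27 for Clec4f, -0.62 for Timd4 and Marco, -0.48 for Cd163 and -0.4 for Vsig4. With the hepatocyte genes the r of Scd2 ran from -0.92 to -0.38. The part of other cell types in the differences of any of the 8 genes was not tested.

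Of the close relatives, 6 of 9 listed were measured. Elovl7, an elongase of very long chains, was at least 4.8-fold higher at 12 weeks than on chow. It was well above background on 0 of 2 chow and 4 of 6 diet arrays and was kept through the diet arrays alone, so its adjusted p of 0.0442 rests on chow values at background. Elovl3, an elongase of very long saturated and monounsaturated chains that is higher in male mouse liver, gave processed signals of 6780, 11400, 1880 and 914 in AIM-/- livers at 0, 6, 12 and 20 weeks, against 19200, 4140, 1720 and 739 in AIM+/+ livers. Its mean diet difference was -2.51 (SE 0.53, adjusted p = 0.0758). Scd3, Scd4 and Elovl4 were too dim to be kept.

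Of the 10 genes of the elongation cycle and its electron donors, 0 passed by limma in the mean diet contrast and 2 had an unadjusted p under 0.05, against 2.33% and 25.2% of all genes. Their median was 0.25, and Hsd17b12, the ketoacyl reductase of the cycle, had 0.51 (SE 0.21, adjusted p = 0.21). Hacd2, a dehydratase of the cycle, had 0.52 (adjusted p = 0.16).

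Among 21 regulators, 1 passed and fell on the diet, against 2.33% of all genes called and 0.795% called lower. It was Mlxipl, the carbohydrate-responsive factor ChREBP (-0.80, SE 0.11, adjusted p = 0.0481), which also fell at 12 weeks (-1.12, SE 0.14, adjusted p = 0.036). Srebf1, the sterol regulatory factor that drives lipogenic genes, had -0.29 (adjusted p = 0.457). Ppara, the fatty acid receptor, had 0.71 (SE 0.24, adjusted p = 0.153). Over the 8 arrays Ppara had an r of 0.98 with Elovl2, 0.87 with Fads2 and 0.80 with Fads1, and Mlxipl one of -0.86 with both Fads2 and Elovl5. These arrays share the diet steps, and the AIM+/+ chow array was lowest for Ppara, Elovl2, Fads1 and Fads2.

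Of the 13 peroxisomal genes, which shorten very long chains, 0 passed by limma for the mean diet contrast and 7 had an unadjusted p under 0.05, against 2.33% and 25.2% of all genes. They had 12 of 13 values above 0 and a median of 0.41, with Decr2, a dienoyl-CoA reductase, at 0.84 (SE 0.14, adjusted p = 0.0548). Of the 13 genes of acyl-CoA activation and phospholipid remodelling, 0 passed in the mean diet contrast and 4 had an unadjusted p under 0.05, against the same shares. Acot2, a mitochondrial acyl-CoA thioesterase, rose at 12 weeks (2.31, SE 0.42, adjusted p = 0.0483).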

How the data were processed

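Liver RNA was measured on 8 one-colour arrays. The submitters' processing notes name Agilent Feature Extraction 9.5 as the source of the processed signal intensity, with background subtracted, per the file headers (9.5.3.1, protocol GE1-v5_95_Feb07, design 014868, build mm8). The deposited values are log2 values, which equal the log2 processed signal minus each array's 75th percentile to within 0.00213. They were used as an alternative.

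Control spots (1639) and outlier spots were dropped, each probe took the mean of its spots, and log2 signal was scaled by the 75th percentile. Probes well above background on at least 2 of 8 arrays were kept (21385), and the brightest probe stood for a gene. Symbols came from RefSeq (24375 probes matched, 16799 did not).

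A limma 3.58.1 model (R 4.3.3, the data.table package at 1.17.8) with week as a factor and genotype was fitted over all genes, and the interaction came from a model of 4 cells of genotype and diet. Both were run on simulated data with known changes and independent noise. That run checks the computation and says nothing on the lack of replicates. A fold "at least" sets the brighter group against the lowest signal well above background, or the dim probe's own where higher. Array number limits the precision. Alternatives were normexp (offset 50), quantile normalization, the authors' own values, other filters, mean of probes, a mean-variance trend and leaving out each week. The 8 genes were always named. Of the other lists, those that passed and the 4 of largest diet difference could be named, and all relatives and regulators. The 5 genes most alike were taken by Pearson r. Genes and lists were chosen with earlier results of these data known. Figures were drawn with matplotlib 3.10.9 in Python 3.11.15.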

Additional observations from a re-analysis of the deposited data

How the results depend on the processing

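Pairing by replicate number was not possible because all 8 arrays carry replicate number 1, so a replicate block has 1 level. Week, a term of the model, already sets the genotypes against each other within each week. Slide could not be fitted as a block because each slide holds 1 genotype. Of the 8 genes, 1 was called in the mean diet contrast, and this became 3 (Fads1, Fads2 and Elovl5) under normexp, with probes well above background on all 8 arrays and with a mean-variance trend. At 20 weeks, 1 became 2 (Fads1 and Fads2) under the same 3 settings. With no filter on dim probes, where 28477 genes were tested, 0 were called in the diet, 12-week and 20-week contrasts. Leaving out a week, with fewer arrays, gave 0 to 1 called for diet, 0 for 12 weeks and 0 for 20 weeks. Between the genotypes at 12 weeks, 1 array against 1, Scd2 was under 2-fold apart with normexp. The count of 1 gene 2-fold apart in that week thus became 0. In the 12-week contrast against chow Scd2 was still called under normexp. Signs turned for small differences: Elovl1 by genotype was -0.04 under normexp, and at 20 weeks 0.08 under normexp and 0.01 under quantile normalization. Leaving out a week, genotype differences spanned -0.5 to 0.17 for Elovl6 (0.17 without chow), -0.13 to 0.26 for Elovl2 (-0.13 without chow), -0.05 to 0.27 for Scd1 and -0.06 to 0.32 for Elovl5 (both lowest without 6 weeks). The Scd1 interaction spanned -0.12 (without 6 weeks) to 0.37, and Elovl1 on the diet 0 (without 12 weeks) to 0.16. The cause was not tested. Of the other values of single genes, 502 kept their direction and side of the threshold, 9 passed it anew and 16 no longer passed. Over all genes, limma called 358 on the diet, between 0 and 1047 under the alternatives, 935 at 12 weeks (75 to 1700), 259 at 20 weeks (29 to 876), 1 at 6 weeks (0 to 23) and 5 by genotype (1 to 5). The interaction gave 0, and 111 with no filter. All 8 genes were well above background on 8 of 8 arrays, and the depth limit is the 1 array per group.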
